A study of Caenorhabditis elegans with 6 samples.

Results

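The genes described here are mig-21, dpy-19, unc-40, mig-13 and vang-1, which act in the polarity and migration of the Q neuroblasts of Caenorhabditis elegans. They are 5 of 17118 genes measured, and 9 of 22548 features, called probe sets, name 1 of them and no other gene in the platform annotation. The genes were chosen by role, leaving out Wnt components and Hox genes, with results of this comparison known and the lower signal of mig-21 in view. Their values are therefore given as a description, with no p-value.

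Expression was measured on Affymetrix C. elegans genome arrays in whole worms of 2 groups, with 3 arrays each. hs::ΔNTbar-1 animals carry the integrated array huIs7, from which a Myc-tagged BAR-1 lacking its amino terminus is made under the hsp16.2 heat shock promoter, together with mec-7::GFP and dpy-20(+). hs::control animals carry the integrated array deIs14, with an insert-free heat shock vector (pPD49.78) and the same markers mec-7::GFP and dpy-20(+), made in dpy-20(e1282) mutants. Both groups were heat-shocked for 30 min, at 38° by the methods and at 30° by the sample labels, and by the methods RNA was taken after a recovery of 60 min. The stage is the L2/L3 molt by the methods and L3 by the labels. The methods describe the samples as independent biological replicates. Each group is 1 strain, with a transgene of its own, and none of the samples used here is from unheated worms, so a response to ΔNTBAR-1 and another difference between the strains cannot be told apart.

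The Q neuroblasts are a pair of cells, QL on the left side and QR on the right, that are born at the same position, polarise in opposite directions and migrate during the first larval stage. QL receives the Wnt signal EGL-20, and through the beta-catenin BAR-1 it turns on the Hox gene mab-5, so that its descendants stay in the posterior, whereas the descendants of QR move to the anterior. The descendants become the touch receptor neurons AVM and PVM, the oxygen-sensing neurons AQR and PQR and the SDQ interneurons. In larvae of the age sampled here these migrations are over, and whole-worm signals are not signals of the Q lineage alone. In such samples, fewer cells that make a transcript and less transcript per cell cannot be told apart.

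The deposited values are signal intensities on a linear scale, which the authors had brought to 1 scale on each array. The median signal was 134 to 145 on the hs::ΔNTbar-1 arrays and 131 to 143 on the hs::control arrays, and 43.1% to 45.6% of probe sets lay under a signal of 100. bar-1, the gene on the transgene, had signals of 7755, 20991 and 16009 in hs::ΔNTbar-1 worms and 586, 519.5 and 575 in hs::control worms, so each array lay on the side that its label gives. Markers of hypodermis, body wall muscle, pharynx and intestine gave signals of at least 353.6 on every array. Of 4 neuron markers unc-31 was dim (at most 36.3 on any of the 6 arrays), and of 5 germ line markers glh-1 and pgl-1 gave signals of at least 442 on every array, puf-5 was lower, and the sperm gene msp-3 (at most 61.9) and the yolk protein gene vit-2 were dim. Differences below are hs::ΔNTbar-1 minus hs::control on the scale of log2(signal + 16), where the 16 understates changes of dim probe sets, and their standard errors (SE) come from limma. Of the 9 probe sets, 6 (with names ending in _s_at) are of a type that can bind several transcripts. The number of arrays limits the precision.

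mig-21 encodes a transmembrane protein with thrombospondin repeats, which acts in both Q cells as they polarise. On its only probe set, 184724_at, mig-21 (F01F1.13, chromosome III) had signals of 7.3, 7.8 and 12.6 in hs::ΔNTbar-1 worms and 87.4, 97.9 and 141.2 in hs::control worms. The highest hs::ΔNTbar-1 array was far below the lowest hs::control array, and replicate 3 was the highest of its group in both groups. The mean was 9.23 ± 2.93 in hs::ΔNTbar-1 worms and 108.8 ± 28.5 in hs::control worms (SD, n = 3 each). The log2 difference was -2.29 (SE 0.19), and 0.0754% of all probe sets had a larger one in size.

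In hs::ΔNTbar-1 animals mig-21 lay near the bottom of the signal scale, where 10.6% to 13.6% of the probe sets of the same array were dimmer. In hs::control animals 43.4% to 49.8% of the probe sets were dimmer. The size of the difference therefore depends on how dim signals are treated. The mean signal of hs::control was 11.8 times that of hs::ΔNTbar-1 when the signals were used as deposited. The difference of the mean log2(signal + 16) values corresponds to a ratio of 4.89. With each of the 6 arrays left out in turn, the difference lay between -2.41 and -2.11.

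dpy-19 encodes a C-mannosyltransferase of the endoplasmic reticulum, which attaches a sugar to thrombospondin repeats, among them those of MIG-21 and of the netrin receptor UNC-5. On probe set 188624_at, dpy-19 (F22B7.10, chromosome III) had signals of 331.5, 296.9 and 399.4 in hs::ΔNTbar-1 worms and 292.8, 315.3 and 313.6 in hs::control worms. The groups overlapped, and hs::ΔNTbar-1 replicate 3 was the highest array. The mean was 343 ± 52.1 in hs::ΔNTbar-1 worms and 307 ± 12.5 in hs::control worms (SD, n = 3 each), a log2 difference of 0.14 (SE 0.14). Without hs::ΔNTbar-1 replicate 3 the difference was 0.03. The enzyme and its substrate had unlike values, with mig-21 lower by a log2 difference of 2.29 in size and dpy-19 within the spread between arrays.

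unc-40 encodes a netrin receptor of the DCC family, which also sets the direction in which the Q cells polarise. Its 3 probe sets (T19B4.7, chromosome I) gave similar differences between the groups. On 191730_s_at the signals of unc-40 were 670.2, 611.5 and 639.5 in hs::ΔNTbar-1 worms and 616.1, 848.2 and 741.8 in hs::control worms, with a log2 difference of -0.18 (SE 0.14). On 173385_at they were 316.2, 449.7 and 491.4 in hs::ΔNTbar-1 worms and 439.4, 488.3 and 508.1 in hs::control worms, with a difference of -0.21 (SE 0.18). On 173386_s_at they were 335.1, 328.2 and 368.5 in hs::ΔNTbar-1 worms and 336.4, 336.7 and 516.5 in hs::control worms, with a difference of -0.17 (SE 0.19). The groups overlapped on each of the 3. The third set owed its difference to a single array, since without hs::control replicate 3 it was 0.03. The second was -0.02 without hs::ΔNTbar-1 replicate 1, and the first was -0.08 without hs::control replicate 2.

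mig-13 encodes a transmembrane protein that promotes migration towards the anterior, in which the descendants of QR depend on it. All 3 probe sets of mig-13 (F43C9.4, chromosome X) were higher on average in hs::ΔNTbar-1 animals, by close to the same amount. On 173507_s_at the signals of mig-13 were 245.3, 194.5 and 233.9 in hs::ΔNTbar-1 worms and 165.4, 186 and 145.4 in hs::control worms, with a log2 difference of 0.41 (SE 0.14). On 175728_s_at they were 196.8, 162.6 and 165.7 in hs::ΔNTbar-1 worms and 136.9, 128.1 and 117.8 in hs::control worms, with a difference of 0.41 (SE 0.12). The groups did not overlap on these probe sets. On 193977_s_at the signals were 166.4, 186.3 and 204.2 in hs::ΔNTbar-1 worms and 117.5, 124 and 180.6 in hs::control worms, with a difference of 0.38 (SE 0.18), and here hs::control replicate 3 exceeded the lowest hs::ΔNTbar-1 array. That array was the lowest of the hs::control arrays on the other 2 probe sets. The mean of the 3 differences was 0.40, or 1.30-fold to 1.33-fold per probe set, and leaving out single arrays moved them between 0.28 and 0.56. The 3 probe sets read the same RNA on the same arrays and are not replicates of each other.

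vang-1 encodes the Van Gogh protein of planar cell polarity, the pathway that orients cells within a tissue. On probe set 187781_s_at, vang-1 (B0410.2, chromosome X) had signals of 116.7, 144.9 and 79.4 in hs::ΔNTbar-1 worms and 128.9, 137.8 and 155.2 in hs::control worms. The groups overlapped, and hs::ΔNTbar-1 replicate 2 was above both of the lower hs::control arrays. The mean was 114 ± 32.9 in hs::ΔNTbar-1 worms and 141 ± 13.4 in hs::control worms (SD, n = 3 each), a log2 difference of -0.30 (SE 0.21). The lowest array, hs::ΔNTbar-1 replicate 3, carried most of this, and without it the difference was -0.10.

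**Figure D1:**
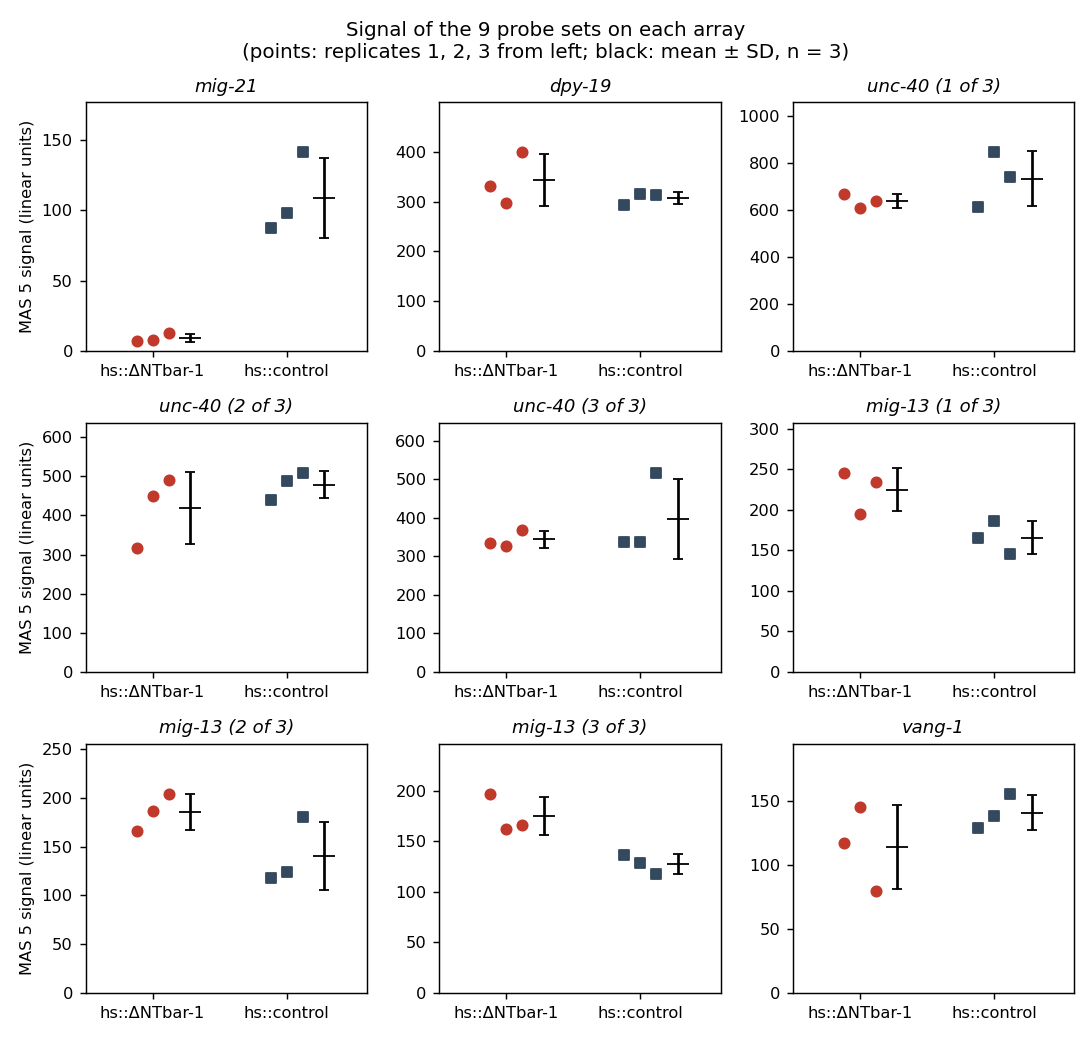
Signal of each of the 9 probe sets of the 5 genes on each array (linear axis from 0), with hs::ΔNTbar-1 arrays (red) left of hs::control arrays (dark), replicates 1, 2 and 3 from the left in each group, and mean ± SD in black. Probe sets of 1 gene are numbered from the brightest. The mig-21 arrays lie between 7.3 and 12.6 in hs::ΔNTbar-1 and between 87.4 and 141.2 in hs::control, while the other 8 probe sets have groups that overlap or lie close together.

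By limma with Benjamini-Hochberg adjustment over all probe sets, 0.266% of probe sets were called lower and 0.408% higher (0.286% and 0.444% of genes) at an adjusted p under 0.05. Of the 5 genes, 1 (mig-21) was called lower and 0 were called higher, and the count of lower genes was 0 without hs::ΔNTbar-1 replicate 1, without hs::ΔNTbar-1 replicate 2 and without hs::control replicate 2. By the methods' criteria, which ask for at least a 2-fold mean change, an unadjusted p of at most 0.05 and 2 of 3 arrays that deviate from the control mean in 1 direction, 0.546% of all probe sets were lower and 0.705% higher, and the mig-21 probe set was the 1 member that met them. Groups did not overlap, with hs::ΔNTbar-1 lower, for 10.1% of all probe sets and for 1 of the 9 here, and with hs::ΔNTbar-1 higher for 10.7% of all probe sets and for 2 of the 9, both of mig-13. Since the genes were chosen with this comparison known, nothing is read from these counts. Outside mig-21, the 8 other probe sets had log2 differences under 0.5 in size. The residual SD of log2 signal was 0.12 to 0.28 over the 9 probe sets, against a median of 0.218 over all probe sets.

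**Figure D2:**
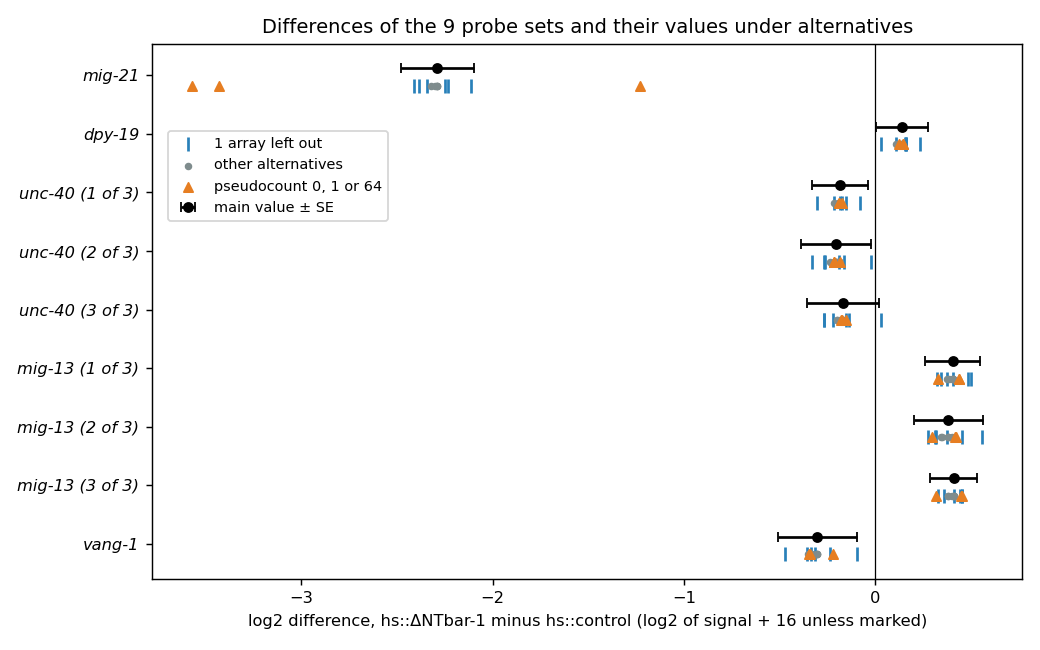
Log2 difference, hs::ΔNTbar-1 minus hs::control, of the 9 probe sets (black, ± SE) and its values with single arrays left out (blue ticks), with other pseudocounts (orange) and under the other alternatives (grey). mig-21 stays below 0 under all of them and spreads most with the pseudocount, the 3 mig-13 probe sets stay above 0, and unc-40 (3 of 3) crosses 0 without hs::control replicate 3.

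The 5 genes lie on 3 chromosomes, and the genes beside them were looked at in the order of the RefSeq gene table of assembly WBcel235. mig-21 lies among 16 genes named for the clone F01F1, of which 15 had a probe set. dpf-4 (F01F1.5), a member of the dipeptidyl peptidase IV family that was known to be lower on these arrays when the clone was looked at, had signals of 418.8, 403.3 and 511.3 in hs::ΔNTbar-1 worms and 2193, 2122 and 1863 in hs::control worms. It fell by 2.18 on the log2 scale (SE 0.14, adjusted p = 0.00468, limma), and with each of the 6 arrays left out in turn the adjusted p was 0.0251 to 0.0405. Since dpf-4 was known to be lower on these same arrays, these p-values are not independent evidence. dpf-4 lies 8 positions from mig-21, and all 7 genes between them were measured.

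None of these 7 genes, nor the rest of the 13 measured F01F1 genes other than mig-21 and dpf-4, passed the test. At an unadjusted p under 0.05 in limma, which 13.9% of all genes had, 2 of the 13 were lower, while 0 met the methods' criteria. These 2, named after their values were seen, were cct-6 (-0.28) and dnpp-1 (-0.27), the gene beside dpf-4 on the side of mig-21. Their groups did not overlap, and the other cct-6 probe set was at 0.00. The differences of the 13 genes ran from -0.40 for the RNA helicase gene ddx-23 to 0.25 for aldo-2. aldo-2, a fructose-bisphosphate aldolase gene and the immediate neighbour of mig-21 on one side, had an adjusted p of 0.452 in limma. On the other side the next gene is the non-coding RNA F01F1.16, which was not measured here, followed by F01F1.2 at 0.15 and hpo-10 at 0.14. The low mig-21 signal was therefore flanked by genes whose difference was under 0.3 in size.

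**Figure D3:**
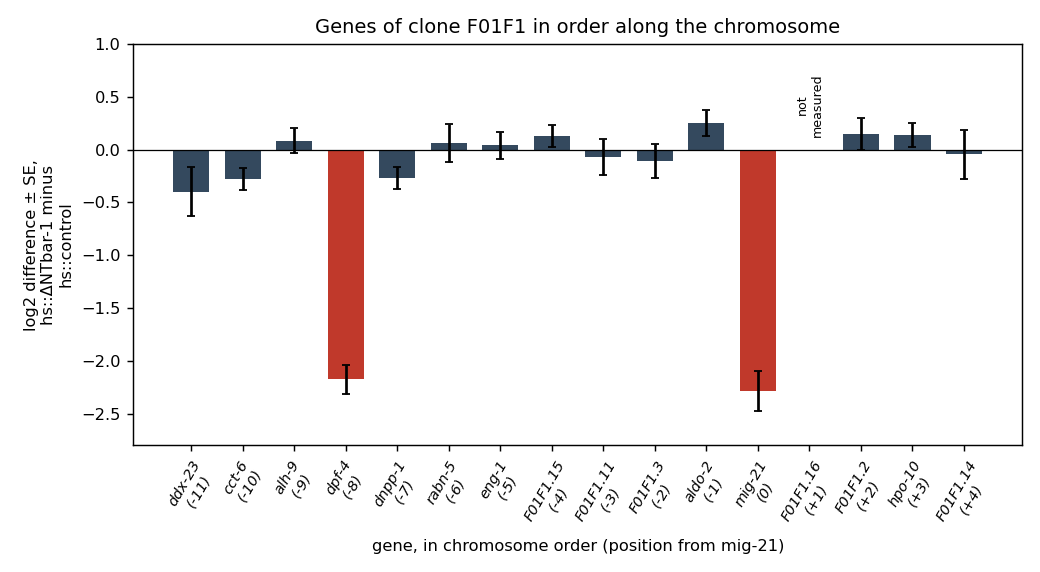
Log2 difference ± SE (hs::ΔNTbar-1 minus hs::control, n = 3 arrays each) of the genes of clone F01F1 in chromosome order, with the position counted from mig-21. dpf-4 (-2.18) and mig-21 (-2.29) are in red, 7 measured genes lie between them, and the other 13 measured genes lie between -0.40 and 0.25.

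Of the 10 genes nearest to each member (5 on either side), 9 were measured for mig-21, 6 for dpy-19, 8 for unc-40, 2 for mig-13 and 3 for vang-1, and 0 of these 28 passed limma's test (4 at an unadjusted p under 0.05, which 13.9% of all genes had, and 0 by the methods' criteria). Among protein-coding genes alone, an order added after the values were seen, 7 to 10 of 10 were measured per member and again 0 of 46 passed (8 at an unadjusted p under 0.05, 1 by the methods' criteria). The nearest to the threshold was F22B7.9, beside dpy-19 in that order, with signals of 984.4, 1071 and 1020 in hs::ΔNTbar-1 worms and 632.7, 583.1 and 652.2 in hs::control worms (log2 difference 0.71, SE 0.11, adjusted p = 0.0575, limma). C04F1.1, in the 4th place from unc-40, was the gene that met those criteria, with a difference of 1.14 (SE 0.17, adjusted p = 0.0581, limma). The zinc finger gene ztf-16, beside mig-13, had a difference of 1.22 (SE 0.57, adjusted p = 0.425, limma), and here hs::control replicate 2 had a signal of 11.6, far under the 101.7 and 100 of replicates 1 and 3. On the other side of mig-13, F43C9.1 and F43C9.2 had differences of -0.49 and -0.55 (adjusted p = 0.360 and 0.353, limma), and their groups overlapped. The 10 protein-coding neighbours of mig-13 ran from -0.55 to 1.22, with a median of -0.10. These genes are named after their values were seen.

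The partners of the 5 genes were then taken from lists of known roles. Of the 70 measured genes on 5 such lists, 2 rose and 0 fell in limma's test (2.86% called), with a median log2 difference of -0.04. Over all 17118 genes, 76 rose and 49 fell (0.730% called), with a median of 0.00. At an unadjusted p under 0.05, 7.24% of all genes were higher and 6.68% lower, 13.9% in all. Both genes that rose belong to the Wnt pathway, and the study names both as changed on these arrays, so that their calls are not independent evidence of a direction.

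The Wnt pathway list holds the ligands, receptors and intracellular parts that guide the Q cells, and 2 of its 19 genes rose, 0 fell and 17 did not pass, with a median of -0.08. At an unadjusted p under 0.05, 6 were higher and 2 lower, and 3 met the methods' criteria (pry-1, plr-1 and mom-2). pry-1, the Axin that keeps beta-catenin low, had signals of 1535, 1712 and 1778 in hs::ΔNTbar-1 worms and 766.6, 736.7 and 709.8 in hs::control worms (log2 difference 1.16, SE 0.11, adjusted p = 0.014, limma). plr-1, a transmembrane RING-type ligase that lowers Frizzled receptors at the cell surface, had signals of 625, 585.1 and 727.6 in hs::ΔNTbar-1 worms and 261.4, 249.6 and 307.1 in hs::control worms (log2 difference 1.20, SE 0.14, adjusted p = 0.0256, limma). Neither gene had groups that overlapped. With each array left out in turn, however, neither passed, with adjusted p-values of 0.0626 to 0.0820 for pry-1 and 0.0658 to 0.116 for plr-1. The Wnt gene mom-2, named after its values were seen, had a larger difference of 1.26 (SE 0.30) that did not pass (adjusted p = 0.160, limma). egl-20, the Wnt that acts on QL, had signals of 113.6, 112.6 and 150.2 in hs::ΔNTbar-1 worms and 155.6, 180 and 148.5 in hs::control worms (log2 difference -0.33, SE 0.15, adjusted p = 0.410, limma), and is named for its role.

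The planar polarity list holds 6 genes that act with VANG-1 or beside it, and 0 of the 6 passed in either direction (2 were lower at an unadjusted p under 0.05, 0 by the methods' criteria). Their median was -0.10, and on the brightest probe set of each gene all 6 differences were below 0, of which 3 lay within 0.05 of 0. Another probe set was above 0 for 2 of the 6, dsh-1 (0.03) and cam-1 (0.12). The largest were those of fmi-1, the Flamingo cadherin, and of the Dishevelled genes dsh-1 and dsh-2. fmi-1 had signals of 529.8, 584.6 and 537.3 in hs::ΔNTbar-1 worms and 702.9, 712.2 and 722.1 in hs::control worms, which did not overlap (log2 difference -0.36, SE 0.10, adjusted p = 0.213, limma). dsh-1 had a difference of -0.30 (adjusted p = 0.293) and dsh-2 of -0.15 (adjusted p = 0.719), both from limma.

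The Hox genes and cofactors set where the Q descendants stop, and 0 of the 5 listed genes passed in either direction, with a median of -0.19 (2 were higher at an unadjusted p under 0.05, 0 by the methods' criteria). mab-5, which BAR-1 activates in QL, had signals of 705, 710.7 and 964.7 in hs::ΔNTbar-1 worms and 552.1, 572.2 and 629.3 in hs::control worms. These groups did not overlap, and the log2 difference of 0.42 (SE 0.16) had an adjusted p of 0.328 in limma, while the other mab-5 probe set was at 0.20. lin-39, which acts in the QR descendants, had signals of 403.2, 382.7 and 398.3 in hs::ΔNTbar-1 worms and 308.8, 311.6 and 315.8 in hs::control worms, which did not overlap either (log2 difference 0.32, SE 0.10, adjusted p = 0.238, limma). egl-5, which acts in the tail, had a difference of -0.31 (adjusted p = 0.588, limma), and its groups overlapped. The cofactor genes unc-62 and ceh-20, named after their values were seen, were lower in hs::ΔNTbar-1 worms without overlap. Their log2 differences were -0.19 and -0.27 (adjusted p = 0.474 and 0.480, limma). The other probe set was at -0.05 for unc-62 and at -0.26 for ceh-20.

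The netrin and UNC-40 list holds 16 genes, of which 0 passed in either direction, with a median of -0.06 (3 were lower at an unadjusted p under 0.05, 0 by the methods' criteria). unc-6, the netrin that UNC-40 binds, had signals of 1215, 1468 and 1264 in hs::ΔNTbar-1 worms and 1669, 1521 and 1878 in hs::control worms, with no overlap (log2 difference -0.36, SE 0.14, adjusted p = 0.333, limma), and its other probe set had a difference of -0.10. madd-2, a TRIM protein gene that acts with unc-40 in muscle arm outgrowth, had a difference of -0.34 on its brightest probe set (adjusted p = 0.334, limma), whereas its 3 probe sets ran from -0.34 to 0.30. unc-34, the Enabled gene of the actin machinery, was dim, at a mean of 67.9 ± 27.5 in hs::ΔNTbar-1 worms and 48.2 ± 6.81 in hs::control worms (SD, n = 3 each), and its difference was 0.34 (adjusted p = 0.597, limma). unc-5, named here because its product is another substrate of DPY-19, had signals of 547.9, 468.4 and 485.6 in hs::ΔNTbar-1 worms and 526.8, 532.7 and 528.8 in hs::control worms, with a difference of -0.08 (SE 0.11, adjusted p = 0.809, limma).

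Of 25 further genes of Q cell migration, 24 were measured and 0 passed in either direction, with a median of 0.05 (1 was higher at an unadjusted p under 0.05, 0 by the methods' criteria). By the brightest probe set of each gene, the largest differences were 0.37 for sdn-1, which encodes syndecan (adjusted p = 0.242, limma), -0.31 for the kinase gene abl-1 (adjusted p = 0.472, limma), whose other probe set was at 0.26, and -0.29 for spon-1, which encodes F-spondin, an extracellular protein with thrombospondin repeats (adjusted p = 0.416, limma). ptp-3, named here because this receptor phosphatase acts with MIG-21 and UNC-40 in the polarisation of the Q cells, had signals of 3653, 2569 and 4175 in hs::ΔNTbar-1 worms and 3115, 2758 and 2947 in hs::control worms, which overlapped (log2 difference 0.21, SE 0.20, adjusted p = 0.705, limma).

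**Figure D4:**
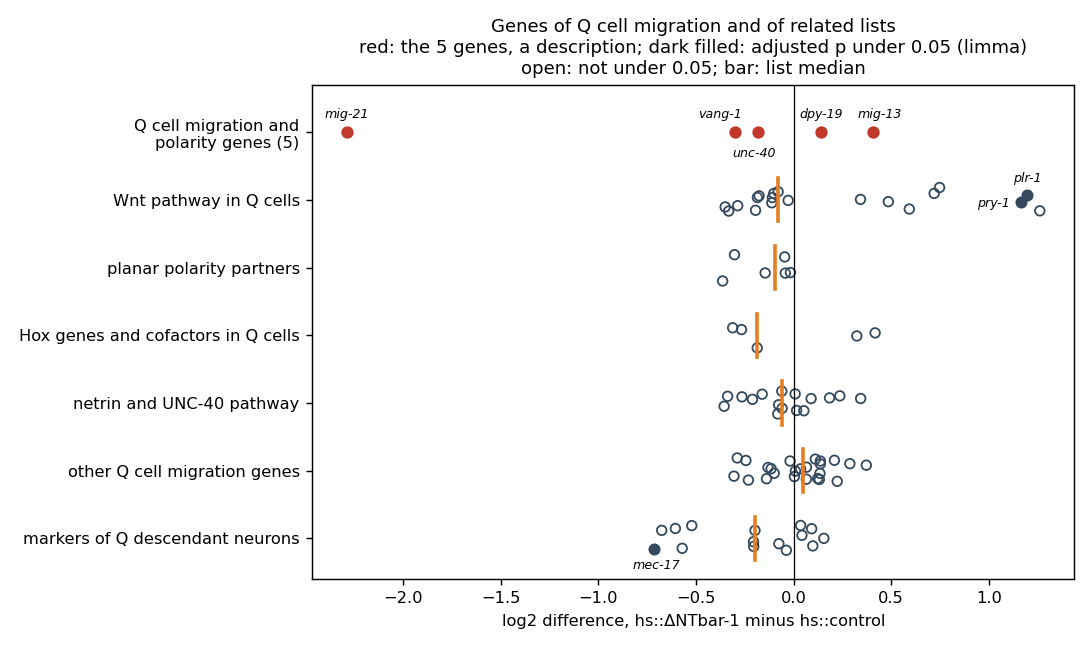
Log2 difference (hs::ΔNTbar-1 minus hs::control) of the 5 genes and of the listed genes, 1 point per gene from its brightest probe set, with the median of each list as a bar. Filled dark points passed limma's test (pry-1, plr-1 and mec-17), open points did not, and mig-21 at -2.29 (red, given as a description) lies below all listed genes.

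Markers of the neurons that the Q cells produce were measured as well. They are shared with the other touch receptor and oxygen-sensing neurons of the animal. Of 15 such genes 0 rose and 1 fell in limma's test, with a median log2 difference of -0.20. Of all genes, 0.444% were called higher and 0.286% lower. At an unadjusted p under 0.05 in limma, 0 of the markers were higher and 2 lower, against 7.24% and 6.68% of all genes. By the methods' criteria 0 of them changed. The gene that fell was mec-17, a tubulin acetyltransferase gene of the touch receptor neurons, with signals of 633.2, 650.2 and 654.4 in hs::ΔNTbar-1 worms and 1125, 1060 and 1029 in hs::control worms (log2 difference -0.72, SE 0.10, adjusted p = 0.0488, limma). It did not pass with any of the 6 arrays left out (adjusted p 0.134 to 0.177). The touch neuron tubulin gene mec-7 had signals of 1405, 1387 and 1454 in hs::ΔNTbar-1 worms and 2898, 1897 and 2129 in hs::control worms, with a difference of -0.68 (SE 0.17) that did not pass (adjusted p = 0.185, limma), and its other probe set was at -0.25. mec-7 is named because the transgenes of both strains carry mec-7::GFP.

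For the other 6 mec genes of the list the groups overlapped, and 2 of them are given here for their roles. mec-4, a subunit of the touch channel, had signals of 151.4, 159 and 192.2 in hs::ΔNTbar-1 worms and 190.3, 209.8 and 181.6 in hs::control worms, and mec-3, the homeobox gene of these neurons, had 106.3, 119.9 and 126.8 in hs::ΔNTbar-1 worms and 93, 114.5 and 138.9 in hs::control worms. Summed over the 15 markers, the signal was 4289 to 4889 in hs::ΔNTbar-1 worms and 5957 to 6539 in hs::control worms, without overlap. Without mec-7 and mec-17, a sum formed after the values were seen, the other 13 markers gave 2250, 2773 and 2781 in hs::ΔNTbar-1 worms and 2516, 3001 and 2936 in hs::control worms, which overlapped. The hypodermis markers did not move one way, and 0 of the 4 passed limma's test. The cuticle collagen gene rol-6 had a difference of 0.58 (SE 0.14, adjusted p = 0.172, limma) and the GATA factor gene elt-3 of -0.56 (SE 0.11, adjusted p = 0.116, limma), and the groups did not overlap for either. Their sum, 34880 to 39110 in hs::ΔNTbar-1 worms and 29090 to 35910 in hs::control worms, is mostly that of the collagen gene dpy-13. The summed markers of neurons in general, mostly the signal of snb-1, were 6903 to 8328 in hs::ΔNTbar-1 worms and 7378 to 7899 in hs::control worms. Among these markers the dim unc-31 was higher without overlap (log2 difference 0.72, SE 0.22, adjusted p = 0.240, limma), and the groups of the others overlapped. Whether the number or kind of cells has a part in the mig-21 value was not tested.

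The genes whose log2 signal followed each member most closely over the 6 arrays were found by Pearson's r among 11970 to 11973 other probe sets of 1 gene with a mean signal of at least 100. These r are a description over 6 arrays that fall into 2 groups. For mig-21, 215 probe sets had an r over 0.95, led by F52E1.14, tbc-7 and ran-1 (r = 0.997 each). The same count was 83 for the brightest probe set of mig-13, on which the groups did not overlap, led by acs-7 (0.997), rgs-5 (0.989) and fat-4 (0.989). For the members whose groups overlapped it was smaller, with 29 for dpy-19 (led by cdap-2 at 0.990, tbc-20 at 0.990 and cav-2 at 0.989), 26 for vang-1 (irg-7 at 0.995, Y47H9C.8 at 0.982 and ccb-1 at 0.982) and 22 for the brightest probe set of unc-40 (kin-2 at 0.993, cand-1 at 0.989 and ddx-23 at 0.985).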

How the data were processed

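Whole worms of 3 hs::ΔNTbar-1 and 3 hs::control samples were profiled, 1 Affymetrix array each, and groups and replicate numbers came from the sample labels. The authors deposited signal intensity per probe set on a linear scale, read here as MAS 5 signal because each array has a trimmed mean of 499.8. The methods name MAS 5 for detection calls and RMA in Partek for statistics, and no RMA values were used here. The methods give 38° and 5 µg of RNA, and the labels 30° and 6 µg.

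The 77 control probe sets were left out. The other 22548 were tested as log2(signal + 16) with limma 3.58.1 (lmFit and eBayes) in R 4.3.3, two-sided, with Benjamini-Hochberg adjustment. The steps were tested on simulated data. With 3 arrays per group, the smallest p of an exact permutation test is 0.1. In no pair of arrays were more than 0.297% of values identical. Symbols and gene order came from the RefSeq table of WBcel235, to which 20701 of 20766 probe sets of 1 gene matched. A listed gene is given by its brightest probe set.

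The members and all lists were chosen with earlier results of these data known. Named genes are the members, listed genes that passed the test or else the 3 with the largest differences (for the pathway lists and the markers of Q descendant neurons), neighbours within 2 positions that the results turn on, the 3 closest patterns per member, and others marked in the text. Alternatives were quantile normalization, centring on the median, leaving out dim probe sets or those that can bind several transcripts, a trended and robust variance, a replicate block, pseudocounts of 1 and 64, the mean or any probe set of a gene, the methods' criteria and leaving out each array. A search of protein sequences for thrombospondin repeats was not run, and no sequences were used.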

Additional observations from a re-analysis of the deposited data

How the results depend on the processing

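The log2 difference of mig-21 was -3.43 with a pseudocount of 1, -1.23 with a pseudocount of 64 and -3.57 with none, an alternative chosen after seeing the data. It lay below 0 under all 14 alternatives. mig-21 was called lower in 9 of the 13 that give a call and in 3 of the 6 fits with 1 array left out, and the arrays whose removal ended the call were replicates 1 and 2 of hs::ΔNTbar-1 and replicate 2 of hs::control. The count of the 5 genes called lower was 0 without dim probe sets, a filter that removes mig-21 itself, and 0 to 1 with 1 array left out. Nothing is read from these counts, since the genes were chosen with the lower mig-21 signal in view. The differences of dpy-19, vang-1, mig-13 and unc-40 moved by less than the spread between arrays under every alternative, and the sign changed in 1 of them, for the third unc-40 probe set without hs::control replicate 3 (0.03).

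Of the listed pathway genes, 2 were called higher. That count was 6 without dim probe sets (mom-2, mig-14, lin-17, pry-1, apr-1 and plr-1). It was 7 with a trended and robust variance, 1 with a pseudocount of 1 and 0 with any 1 array left out. The cause of these shifts was not tested. rol-6 and elt-3 passed without dim probe sets (adjusted p 0.0494 and 0.0274) and with a trended and robust variance (0.0186 and 0.00997), and elt-3 (0.0404) also with 64 as the pseudocount.

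In the fit with a replicate block, 0 of the 5 genes and 0 of the listed genes were called, and the adjusted p was 0.111 for dpf-4, 0.139 for pry-1, 0.129 for plr-1 and 0.207 for mec-17. Arrays that share a number deviated from their group means with correlations of 0.066, -0.02 and 0.065 across probe sets. Because these correlations are small, the numbers were not treated as pairs, although 2 of the 3 hs::ΔNTbar-1 arrays correlated best with their own number.

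The median of all probe sets moved by under 0.1 on the log2 scale under each scaling. The number of arrays limits precision, and the dim mig-21 signal in hs::ΔNTbar-1 limits the size of its fold difference.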
